A study of Mus musculus with 6 samples.

Results

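The NR4A orphan nuclear receptors, encoded by Nr4a1, Nr4a2 and Nr4a3, were followed library by library in RNA from mouse pancreatic islets. They are 3 of the 55536 genes of the deposited count table, matched by symbol. The family was singled out with results of these libraries in view, Nr4a3 being selected on its lower count in the knockout libraries and the others as its paralogs, so the receptors' own values below are a description of the knockout and control libraries. Where a fit across all genes puts a receptor past a threshold, this too is a description and supports nothing. Islets are the hormone-secreting cell clusters of the pancreas, with insulin-producing beta cells, glucagon-producing alpha cells and somatostatin-producing delta cells. The 3 control libraries came from mice of genotype Klf4+/+;Gcg-iCre, which carry Cre recombinase under the glucagon gene and intact Klf4. The 3 knockout libraries came from mice of genotype Klf4fl/fl;Gcg-iCre, with the same driver and both Klf4 alleles floxed. Both groups were on the background that the series design writes as C57B1/6J, and their age and sex are not in the labels. The driver acts in alpha cells, while whole islets were sequenced, so a change confined to alpha cells is diluted by the other cells. In such bulk samples fewer cells of a type and less RNA per cell cannot be told apart.

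NR4A receptors are transcription factors that work without a known hormone ligand. Their ligand pockets are filled by bulky side chains, so their activity is set largely by how much protein a cell makes. All 3 genes are immediate early genes: their transcription is switched on quickly and briefly by cyclic AMP, calcium and growth factors, in large part through CREB and its CRTC coactivators at cyclic AMP response elements in the promoter. The proteins bind the NGFI-B response element as monomers, and NR4A1 and NR4A2, but not NR4A3, also pair with retinoid X receptors. In beta cells, Nr4a1 and Nr4a3 have been placed downstream of Nkx6-1 in the control of proliferation.

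The promoters are shown because cyclic AMP response elements are the family's best known route of induction. Each receptor matched 1 entry of the RefSeq promoter table (build GRCm38.p6), and the 250 bases before the RefSeq start site were searched for the core of the cyclic AMP response element, TGACG or its reverse complement CGTCA, on both strands. Each of the 3 promoters held 4 such cores. Of the 32851 promoters of the table, 17.8% held at least 1, 0.688% at least 3 and 0.137% at least 4. These shares were not adjusted for base composition. In the sequences below, printed 5′ to 3′ on the gene's own strand, capitals mark these cores. The Nr4a1 stretch is chr15:101266596-101266845 (plus strand), inside the annotated gene but in none of its exons, the Nr4a2 stretch chr2:57124004-57124253 (minus strand) and the Nr4a3 stretch chr4:48045055-48045152 (plus strand), the last cut to the 98 bases that lie outside every annotated Nr4a3 exon.
Nr4a1: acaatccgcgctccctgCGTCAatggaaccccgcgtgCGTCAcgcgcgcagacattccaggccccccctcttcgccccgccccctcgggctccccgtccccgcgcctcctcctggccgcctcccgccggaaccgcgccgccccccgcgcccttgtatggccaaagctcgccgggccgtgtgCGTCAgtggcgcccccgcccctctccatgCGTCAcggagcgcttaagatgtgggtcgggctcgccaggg
Nr4a2: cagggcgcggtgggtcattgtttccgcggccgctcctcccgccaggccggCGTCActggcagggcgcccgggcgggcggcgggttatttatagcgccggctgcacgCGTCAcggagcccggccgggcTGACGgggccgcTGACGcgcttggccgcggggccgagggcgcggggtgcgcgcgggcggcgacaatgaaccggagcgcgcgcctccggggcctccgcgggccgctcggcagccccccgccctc
Nr4a3: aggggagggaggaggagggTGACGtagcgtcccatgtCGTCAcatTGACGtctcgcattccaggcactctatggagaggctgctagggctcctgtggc
In Nr4a1 the cores began 233, 213, 69 and 40 bases before the start site, a distal and a proximal pair. In Nr4a2 they began 200, 144, 123 and 111 bases before it. In Nr4a3 the 3 printed ones began 231, 213 and 205 bases before it. The other one lay in the part not printed, 152 bases that fall in annotated Nr4a3 exon. The annotated Nr4a3 gene starts at base 48045153, before the RefSeq start site at 48045305, so the printed cores are closer to the annotated start. The full palindrome TGACGTCA, present in 1.55% of all promoters, was in none of the 3 windows. Neither was GGGTGTGG, a core of the KLF4 motif (3.20% of promoters), nor the NGFI-B response element AAAGGTCA (1.34%), each searched on both strands. These matches describe letters in a window and were not tested as binding sites. The core TGACG is contained in TGACGTCA.

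Library totals ran from 101277200 to 110243918 counts. Klf4, the targeted gene, is given first, in normalized counts (counts divided by the library's size factor) and in the order of replicates 1, 2 and 3, which is kept below. The controls held 3148, 2879 and 2015, the knockouts 2340, 2540 and 2277. These ranges overlapped through control replicate 3, the other controls lying above every knockout. The log2 fold change of Klf4 was -0.17, with an adjusted p of 0.774 in DESeq2. Without control replicate 3 it was -0.34, with an adjusted p of 0.00568 in DESeq2, and it did not pass without any other library. Xist, the RNA of the inactive X chromosome, had between 73469 and 108994 counts in the control libraries and between 12 and 32 in the knockout libraries. A sum of 4 Y-linked genes was at 0 counts in every control and between 15756 and 17090 in every knockout. Sex and genotype cannot be told apart here, and each difference below is one of both. Knockout replicate 1 stood apart in liver RNA, with 54349 counts of albumin (Alb) against 1690 in knockout replicate 2 and 104 to 222 in the 4 other libraries. All markers listed for alpha, beta and delta cells were detected in each of the 6 libraries.

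The receptors were expressed at very different levels. Per length (normalized counts per kb of annotated exon), Nr4a1 was the most abundant at 800 ± 326 in control and 630 ± 104 in knockout libraries (SD, n = 3 each). Nr4a2 followed at 235 ± 9.73 and 217 ± 31.3. Nr4a3 was the rarest at 35.5 ± 10.5 and 15.8 ± 4.70. This order, Nr4a1 above Nr4a2 above Nr4a3, held in each of the 6 libraries, with no overlap between neighbouring receptors. Nr4a1 made up 62.5% to 78.1% of the family's summed level per length in a library, Nr4a2 18.3% to 33.9% and Nr4a3 1.37% to 3.62%.

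Nr4a1 (Nur77; ENSMUSG00000023034, chromosome 15, 101254269 to 101274795, plus strand, GRCm38) encodes the receptor best known for its rapid induction by growth factors and by T cell receptor signals. Its normalized counts were 3420, 3516 and 1490 in the controls, and 1952, 2627 and 2049 in the knockouts. The 2 highest libraries were controls, but the lowest of all 6 was control replicate 3, and the knockout values lay between these. The control mean was 2809 ± 1143 and the knockout mean 2209 ± 365 (SD, n = 3), and the log2 fold change of knockout against control was -0.35 ± 0.40 (SE).

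Nr4a2 (Nurr1; ENSMUSG00000026826, chromosome 2, 57106830 to 57124003, minus strand) encodes the receptor needed for midbrain dopamine neurons. It was at 925, 997 and 934 normalized counts in the controls and at 921, 982 and 737 in the knockouts. These values were close to each other apart from knockout replicate 3, the lowest library, and the groups overlapped. The log2 fold change was -0.11 ± 0.13 (SE).

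Nr4a3 (Nor1; ENSMUSG00000028341, chromosome 4, 48045153 to 48086447, plus strand) encodes the third receptor of the family. Its normalized counts were 271, 221 and 146 in the controls, and 119, 101 and 63.9 in the knockouts, from 64 to 273 raw counts in a library. Every knockout library lay below every control, and the lowest control was 1.23-fold above the highest knockout. The control mean was 213 ± 62.6 and the knockout mean 94.6 ± 28.1 (SD, n = 3), and the log2 fold change was -1.17 ± 0.32 (SE), a 2.25-fold lower level. No annotated gene overlaps any of the 3 receptor genes on either strand.

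**Figure D1:**
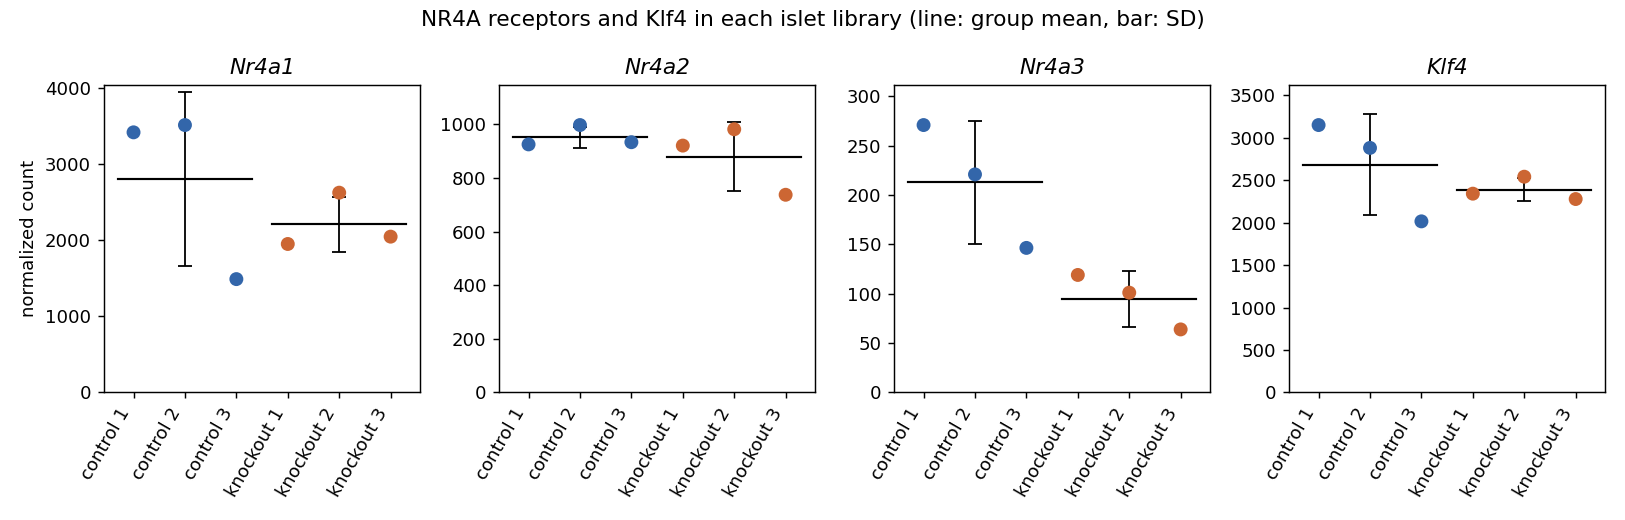
Normalized counts (y axes, each from 0) of Nr4a1, Nr4a2, Nr4a3 and Klf4 in the 3 control (blue) and 3 knockout (orange) libraries; lines are group means and bars the SD. Nr4a3 is below 120 normalized counts in each knockout library and above 146 in each control, whereas Nr4a1 and Klf4 are lowest in control replicate 3.

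In the fit across all genes (DESeq2, Benjamini-Hochberg adjusted p-value under 0.05), 2.19% of the 17797 genes given an adjusted p were past the threshold, with 0.657% lower and 1.53% higher in the knockouts. Among the receptors 1 of 3 was past it, Nr4a3, the one for which the family was picked. In edgeR's quasi-likelihood test 0 of the 3 passed at an adjusted p under 0.05, where 0.115% of all genes did; 1 of the 3 had an unadjusted p under 0.05 in either tool, as did 9.03% of all genes in DESeq2 and 9.48% in edgeR. Of the 15811 genes with a mean of at least 50 normalized counts, 8.54% had every knockout below every control and 9.42% every knockout above; of the 3 receptors 1 was of the first kind and 0 of the second.

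Single libraries moved the receptors unequally. Without control replicate 3, the log2 fold change of Nr4a1 was -0.65 in place of -0.35 and Nr4a1 joined Nr4a3 past the DESeq2 threshold, in a fit that called 952 genes (6.28%) in place of 389. Without control replicate 1 or 2 it was -0.18 or -0.15. Nr4a2 went to -0.0023 without knockout replicate 3 and to -0.20 without knockout replicate 2. Nr4a3 stayed between -1.38 and -0.95 whichever library was left out, but was past the threshold in 2 of those 6 fits, the ones without control replicate 3 or knockout replicate 1. Without knockout replicate 1, the library with liver RNA, its log2 fold change was -1.37. Since Nr4a3 was chosen for its lower count in these libraries, its direction in these fits is fixed by that choice and says nothing of its stability.

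**Figure D2:**
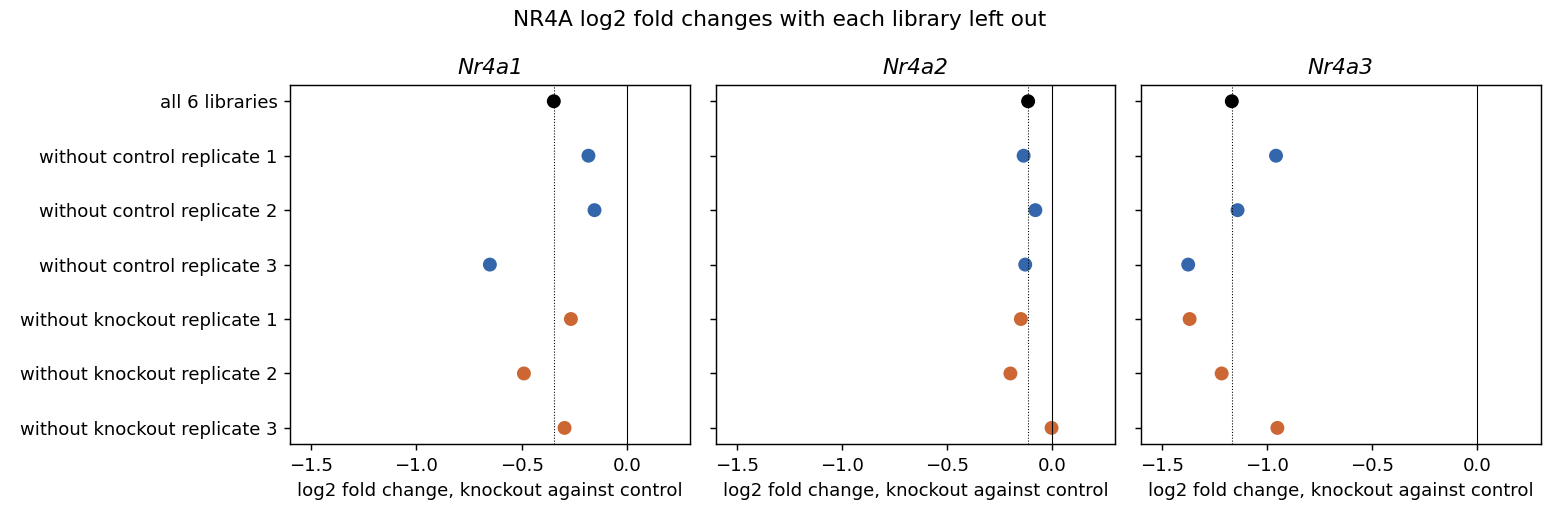
Log2 fold changes of knockout against control (x axes) for each receptor with all 6 libraries (black, dotted line) and with 1 control (blue) or 1 knockout (orange) library left out. Nr4a3 stays at or below -0.95, Nr4a1 spans -0.65 to -0.15 and Nr4a2 reaches -0.0023.

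Summed marker RNA of several cell types differed between the groups alongside Nr4a3. Of 9 marker lists, 5 had summed levels (CPM, counts scaled to the library total) that did not overlap between the groups, and no marker was at 0 in all libraries. The 6 alpha cell markers summed to 37843 to 55822 CPM in controls and 28717 to 34760 in knockouts. This sum was made up mostly of the glucagon gene Gcg, at 4.57e+06 and 3.11e+06 normalized counts on average. Of the 6, 5 had every knockout below every control, beside 8.54% of genes with a mean of at least 50. The other, Irx2, overlapped. In DESeq2 4 of the 6 fell, where 0.657% of all genes did. That count was 1 without control replicate 2 and 0 without knockout replicate 1 or 3. Acinar markers summed to 3760 to 7703 and 9934 to 13658 CPM, and 0 of the 6 passed in DESeq2, although 6 had an unadjusted p under 0.05 in each tool (9.03% of all genes in DESeq2, 9.48% in edgeR). Without control replicate 2, the control with the highest acinar sum, 6 of the 6 rose in DESeq2, in a fit that called 1.56% of all genes. Without any other library 0 did. Mesenchymal markers summed to 462 to 621 and 888 to 967 CPM, and 4 of 6 rose in DESeq2, where 1.53% of all genes did, and 4 did whichever library was left out. Duct markers summed to 246 to 268 and 287 to 343 CPM, and 2 of 5 rose in DESeq2, or 1 without control replicate 1 or 2 or knockout replicate 1 or 3. The log2 fold changes of the 5 duct markers ran from -0.51 to 0.66, so they did not all rise. Of the 5, 2 had every knockout above every control, beside 9.42% of genes with a mean of at least 50. In edgeR 2 of the mesenchymal markers passed and 0 of the alpha, acinar and duct markers, beside 0.115% of all genes.

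Lymphocytes induce Nr4a1 and Nr4a3 when activated. The 6 lymphocyte markers summed to 15.8 to 17.0 CPM in controls and 13.0 to 13.7 in knockouts, a sum made up mostly of Cd79a, a part of the B cell receptor, at 1607 and 1366 normalized counts on average. Cd79b, its partner in that receptor, was at 18.8 and 10.1 and overlapped between the groups, so the sum is nearly that of Cd79a alone. The B cell marker Ms4a1 was at 15.9, 13.4 and 23.3 normalized counts in controls and 1.89, 0 and 2.00 in knockouts. DESeq2 gave an adjusted p to 2 of these 6, neither under 0.05; 0 of the 6 passed in edgeR, and 4 had an unadjusted p under 0.05 in each tool, beside 9.03% of all genes in DESeq2 and 9.48% in edgeR. The beta, delta, endothelial and macrophage sums overlapped. Of the 6 macrophage markers 2 rose in DESeq2, Cd68 (adjusted p 0.0416) and the complement gene C1qb (0.00854), beside 1.53% of all genes, and 0 passed in edgeR, beside 0.115%. Cd68 lost its call without control replicate 1 or 2 or knockout replicate 1 or 3, and C1qb without knockout replicate 1 or 3. The more abundant C1qa was at 5827 in controls and 4819 in knockouts on average. The part of these markers, or of sex, in the Nr4a3 difference was not tested.

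By library, Nr4a1 resembled Klf4 more closely than it resembled its paralogs. Both had their 2 highest values in control replicates 1 and 2 and their lowest in control replicate 3. Over the 6 libraries, Pearson's r of log2(normalized count + 1) between Nr4a1 and Klf4 was 0.97 and Spearman's rho 0.89, a description over 6 points from the same libraries. Only 0.171% of 15810 genes had a higher r with Nr4a1. The r was 0.95 without control replicate 3 and 0.98 without the 2 libraries farthest from the median of Klf4, control replicates 1 and 3. For Nr4a2 and Klf4 the r was 0.35 and for Nr4a3 and Klf4 0.67. Among the receptors r was 0.36 between Nr4a1 and Nr4a2, 0.58 between Nr4a1 and Nr4a3, and 0.67 between Nr4a2 and Nr4a3. The count of Nr4a1 was 0.740 to 1.22 times that of Klf4 in controls and 0.834 to 1.03 times in knockouts, whereas that of Nr4a3 was 0.0727 to 0.0860 times in controls and 0.0280 to 0.0508 times in knockouts. The lower Nr4a3 ratio in knockouts restates its choice for a lower count there.

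The immediate early genes, the stimulus-induced class to which the receptors belong, showed where control replicate 3 stood. Nr4a1 was there at 43.0% of the mean of the other 2 controls, Nr4a3 at 59.6%, Klf4 at 66.8% and Nr4a2 at 97.1%. The AP-1 subunit gene Fos was at 65.0%, the zinc finger gene Egr1 at 62.2% and the AP-1 gene Junb at 72.2%. Of 31 listed immediate early genes with a mean of at least 50, 20 had their lowest value of all 6 libraries in control replicate 3, or 64.5%, against 20.6% of all genes at that level. The median ratio of control replicate 3 to the mean of the other controls was 0.722 over these 31 genes and 1.01 over all genes. The comparison was chosen after Nr4a1 had been seen to be low in that library. Nr4a1 was thus lowest in the library where most of this class was lowest, and Nr4a2 and Nr4a3 were not, their lowest library being knockout replicate 3.

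**Figure D3:**
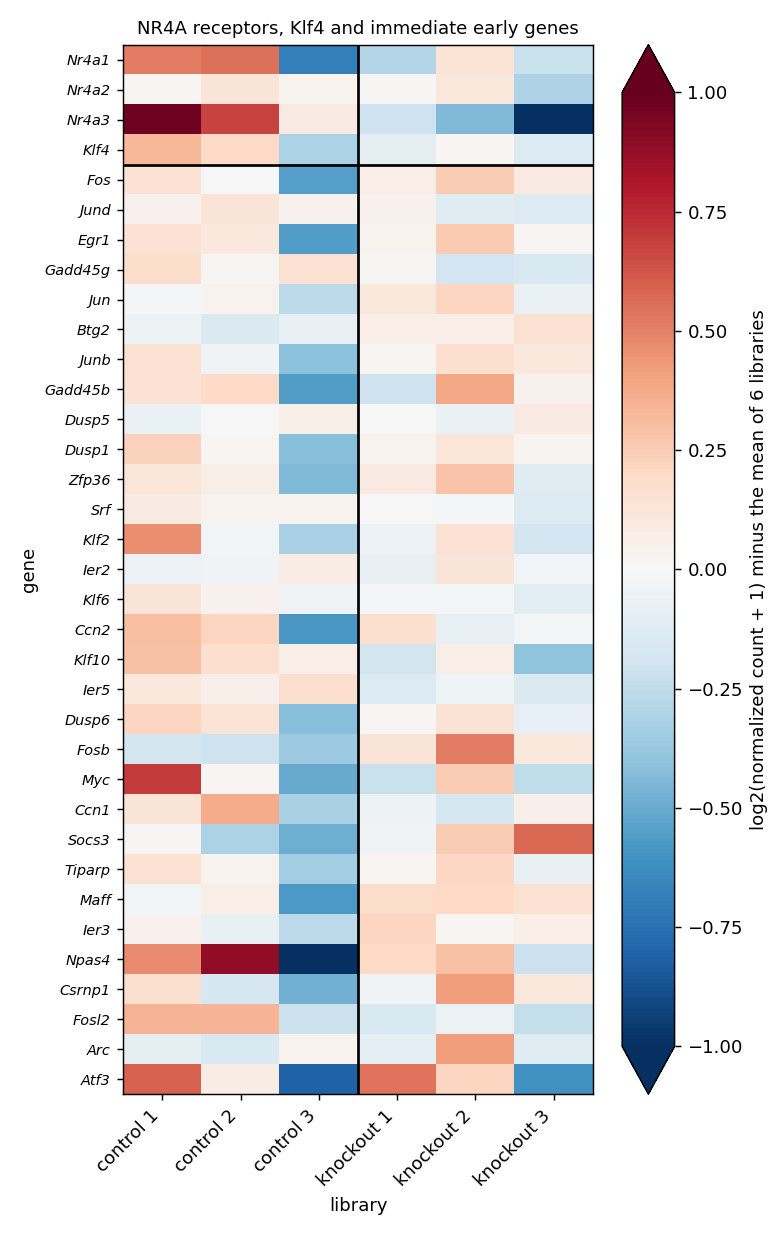
Log2(normalized count + 1) minus the gene's mean over 6 libraries (colour, ending at -1 and 1) for the receptors, Klf4 and 31 immediate early genes (y axis, by level per length) in each library (x axis). Control replicate 3 is the lowest library for Nr4a1, Klf4 and 20 of the 31 genes, while Nr4a3 is low in all 3 knockouts.

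Between the genotypes, 33 of the 36 listed immediate early genes were given an adjusted p in DESeq2 and 1 passed, upward, against 2.19% of all genes tested, and the median log2 fold change was 0.02, beside -0.0061 over all genes tested. Fosb, which encodes an AP-1 subunit, was at 2983, 2929 and 2630 normalized counts in controls and 3695, 4829 and 3646 in knockouts, with every knockout above every control. Its log2 fold change was 0.51 ± 0.12 (SE), with an adjusted p of 0.00286 in DESeq2 and 0.187 in edgeR. The most abundant genes of the class per length, Fos, Jund, Egr1, Gadd45g and Jun, had log2 fold changes of 0.24, -0.14, 0.17, -0.22 and 0.16, none past the threshold. In edgeR 0 of the 36 passed, while 7 had an unadjusted p under 0.05 (9.48% of all genes), and 8 did so in DESeq2 (9.03%).

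Among cyclic AMP and CREB target genes, 19 were given an adjusted p in DESeq2 and 2 passed, beside 2.19% of all genes. They were Crem, downward, and Fosb, which is on both lists, upward; the median of the 20 in the fit was -0.07. Crem encodes a CREB family factor and, from an internal promoter, the repressor ICER, which ends cyclic AMP responses. It fell to 1570 ± 23.8 normalized counts from 2088 ± 54.5 (SD, n = 3 each), with 2124, 2115 and 2025 in the controls and 1549, 1564 and 1596 in the knockouts. Its log2 fold change was -0.41 ± 0.08 (SE), with an adjusted p of 0.000183 in DESeq2 and 0.118 in edgeR, and like Fosb it was past the DESeq2 threshold whichever library was left out. Gene counts do not separate ICER from the full-length form. In edgeR 0 of the 20 passed, while 8 had an unadjusted p under 0.05 (9.48% of all genes), and 7 did so in DESeq2 (9.03%). One listed gene, Pck1, was at 3141 normalized counts in knockout replicate 1, the library with liver RNA, and at most 99.0 in any other. DESeq2 gave Pck1 no p-value, and edgeR gave it an adjusted p of 0.283.

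The regulators upstream of the receptors mostly did not pass. Of 24 genes for CREB, CRTC, MEF2, NFAT, calcineurin, protein kinase A and class IIa histone deacetylases and related kinases and factors, 1 passed, beside 2.19% of all genes. It was Hdac9, whose product holds MEF2 factors inactive at promoters. It rose from 2419 ± 555 to 3420 ± 163 normalized counts (SD, n = 3 each), or by 0.50 ± 0.14 on the log2 scale (SE); the adjusted p was 0.0274 in DESeq2 and 0.307 in edgeR. Its control values were 2274, 1951 and 3033 and its knockout values 3336, 3607 and 3316. Hdac9 kept its call in the fit without control replicate 3 and lost it in the fits without any other library. The median of the 24 was 0.02. In edgeR 0 of the 24 passed, with 5 at an unadjusted p under 0.05 in each tool (9.48% of all genes in edgeR, 9.03% in DESeq2).

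Of 16 partners and cofactors, 1 passed in DESeq2, beside 2.19% of all genes. It was Rxra, which encodes the retinoid X receptor that pairs with NR4A1 and NR4A2. It rose from 6460 ± 778 to 8354 ± 406 normalized counts (SD, n = 3 each), or by 0.37 ± 0.10 on the log2 scale (SE); the adjusted p was 0.0127 in DESeq2 and 0.21 in edgeR. Its control values were 6175, 5864 and 7340 and its knockout values 7885, 8585 and 8591. The call was lost when any library other than control replicate 3 was left out, with log2 fold changes of 0.31 to 0.41. The other retinoid X receptor gene at a comparable level, Rxrb, had a log2 fold change of 0.0019. The median of the 16 was 0.02, and in edgeR 0 passed, with 1 at an unadjusted p under 0.05 in each tool (9.48% of all genes in edgeR, 9.03% in DESeq2).

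Of 23 genes tied to NR4A receptors in other tissues or in beta cells, 22 were given an adjusted p in DESeq2 and 2 passed, 1 downward and 1 upward, beside 0.657% and 1.53% of all genes. The median of the 23 was -0.01. Nkx6-1, the beta cell factor placed upstream of Nr4a1 and Nr4a3, went from 58719 ± 2189 to 50186 ± 1792 normalized counts (SD, n = 3 each), which is -0.23 ± 0.07 on the log2 scale (SE); the adjusted p was 0.0314 in DESeq2 and 0.361 in edgeR. Pdk4, which encodes a kinase that switches off pyruvate dehydrogenase, rose from 5268 ± 224 to 6345 ± 374, or by 0.27 ± 0.08 on the log2 scale (SE), with an adjusted p of 0.0363 in DESeq2 and 0.232 in edgeR. Nkx6-1 lost its call without control replicate 1 or 2 or knockout replicate 1 or 3. Pdk4 lost it without control replicate 1 or any knockout replicate. In edgeR 0 of the 23 passed, while 8 had an unadjusted p under 0.05 (9.48% of all genes), and 7 did so in DESeq2 (9.03%). The listed gene G6pc was at 596 normalized counts in knockout replicate 1, the library with liver RNA, and at most 18.6 in any other. DESeq2 gave G6pc no p-value, and edgeR gave it an adjusted p of 0.355.

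Among the nuclear receptors with a mean of at least 50, Nr4a1 and Nr4a3 were near the top in the spread of their counts over the 3 controls and Nr4a2 near the bottom there. Of 49 receptor genes in the table, 44 entered the fit and 38 had a mean of at least 50. Ranked per length among the 49, Nr4a1 was 15th, Nr4a2 25th and Nr4a3 34th. In the spread over the 3 control libraries (SD of log2 counts), Nr4a1 ranked 1st of the 38 at 0.70, followed by the circadian receptor genes Nr1d1 at 0.57 and Nr1d2 at 0.51 and then Nr4a3 at 0.45, while Nr4a2 ranked 35th at 0.06. The spread of Nr4a1 came largely from control replicate 3, where it was at 43.0% of the mean of the other controls. Against the 15811 genes with a mean of at least 50, the control spread of Nr4a1 was at percentile 97.6, that of Nr4a3 at 92.3 and that of Nr4a2 at 16.5. In the knockouts the corresponding percentiles were 82.3, 95.1 and 80.8, so the low spread of Nr4a2 was not seen there.

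Of the 46 other nuclear receptors, 41 entered the fit and 38 were given an adjusted p in DESeq2. Of these 2 passed, both upward, beside 1.53% of all genes: Rxra and Esrrg, an estrogen-related receptor gene of oxidative metabolism. Esrrg rose from 2252 ± 340 to 3083 ± 85.2 normalized counts (SD, n = 3 each), or by 0.45 ± 0.12 on the log2 scale (SE); the adjusted p was 0.00822 in DESeq2 and 0.203 in edgeR. The call of Esrrg was lost without any 1 of the knockout replicates. The median of the 41 was 0.02, and their log2 fold changes ran from -0.57 to 0.58. Nr4a3 lay below each of them, which restates its choice for a lower count in the knockouts. In edgeR 0 of the 41 passed, while 5 had an unadjusted p under 0.05 (9.48% of all genes), and 6 did so in DESeq2 (9.03%).

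**Figure D4:**
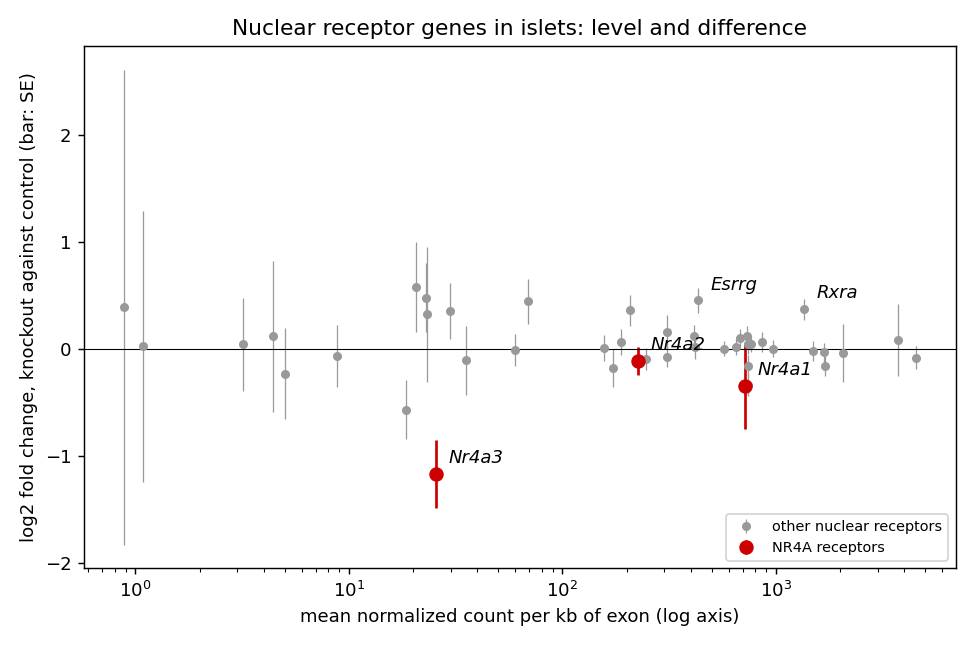
Log2 fold change of knockout against control (y axis, bars are the SE) against the mean normalized count per kb of exon (x axis, log scale) for the 44 nuclear receptor genes in the fit, with the NR4A receptors in red. Nr4a3, chosen for its lower count in the knockouts, lies lowest at -1.17. Rxra (0.37) and Esrrg (0.45) are the 2 other receptors past the DESeq2 threshold.

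The genes whose pattern over the 6 libraries was most like each receptor were then named, as a description without a test, by Pearson's r of log2(normalized count + 1) among genes with a mean of at least 50. With 6 points a high r is common: 1.56% of genes reached 0.9 with Nr4a1, 0.582% with Nr4a2 and 1.26% with Nr4a3. For Nr4a1 they included Gm44109, Mbnl2, Kcnk5 and BC051142, with r from 0.99 to 1.00. Kcnk5 encodes a potassium channel and Mbnl2 a splicing regulator. Kcnk5 was at 256, 261 and 151 normalized counts in controls and 172, 225 and 182 in knockouts, the same order of libraries as Nr4a1.

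For Nr4a2 they included Jkamp, Iffo2, Med26 and Casc3, with r from 0.98 to 1.00; Med26 encodes a Mediator subunit. These 4 had their lowest value in knockout replicate 3, as Nr4a2 did. For Nr4a3 they were 4930555F03Rik, Fbxo11, Fpgt, Pou2f1 and C030015A19Rik, with r from 0.99 to 1.00 and each with the same order of the 6 libraries as Nr4a3. Pou2f1, which encodes the octamer-binding factor OCT1, differed far less in size, from 4350, 4197 and 4050 in controls to 4005, 3954 and 3750 in knockouts. The transcript 4930555F03Rik was at 322, 294 and 239 in controls and 208, 206 and 166 in knockouts, a log2 fold change of -0.56.

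With the group means removed, so that only the scatter within each genotype counted, a high r was more common still: 4.21% of genes reached 0.9 with Nr4a1, 1.40% with Nr4a2 and 2.57% with Nr4a3. On this measure Gm44109, Mtf2, Mbnl2 and Gm45495 were among those most like Nr4a1, and Iffo2, Scarb1, Jkamp and Spryd4 among those most like Nr4a2, each with r from 0.99 to 1.00. For Nr4a3 they were Tbc1d23, Vwde, Gm16230, Hdac8 and Atf3, also from 0.99 to 1.00. Atf3 is itself a stress-induced immediate early gene. It was at 211, 148 and 79.6 normalized counts in controls and at 205, 163 and 91.8 in knockouts. Within each genotype Atf3 and Nr4a3 were highest and lowest in the same replicates, but between the genotypes Atf3 had a log2 fold change of 0.07 and Nr4a3 one of -1.17.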

How the data were processed

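Reads of polyadenylated islet RNA were counted per gene by the authors, who deposited raw counts of 6 libraries in 1 table; the submitters' processing notes list FastQC, STAR, featureCounts, DESeq2 and build mm10 without versions, and the strand setting is not given in the sources used here. All 55536 identifiers matched GENCODE M21 (GRCm38), which gave positions and exon lengths; 0 columns were unused. Replicates are separate samples in the labels, with nothing on separate animals, so p-values measure the spread between these samples, which may be technical. Within-group pairs differed by 40.3 to 122 times the chi-square expected from counting, so no pair agreed within counting noise; whether libraries share an RNA sample was not tested. A floor of 3 counts is 0.0272 to 0.0296 CPM, for counting error only.

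DESeq2 1.42.0 (R 4.3.3, the design the series text names) was run on genes with at least 10 counts in total, with genotype as the only term. The fits with DESeq2 and edgeR 4.0.16 were tested on simulated data. Log values used a pseudocount of 1. Alternatives were edgeR with TMM, TMM factors, no or a stricter filter, an adjusted p of 0.1, the replicate block, CPM and each library left out. The receptors and the 6 pathway and 9 marker lists were chosen with earlier results of these data known. Named from each list were the members past the threshold, at most 6, from the immediate early genes also the 5 most abundant per length, and for each receptor the 5 genes of highest correlation under either measure, some of which are not reported here. Other genes (Rxrb, Junb, Nr1d1, Nr1d2) were named after their values were seen, as were Alb, Xist and the Y-linked genes.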

Additional observations from a re-analysis of the deposited data

How the results depend on the processing

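The log2 fold changes of the receptors kept their sign under every alternative run, which for Nr4a3 its choice fixes. Leaving out 1 library gave -0.65 to -0.15 for Nr4a1, -0.20 to -0.0023 for Nr4a2 and -1.38 to -0.95 for Nr4a3. As a difference of mean log2(CPM + 1) Nr4a3 was -0.66, since 1 CPM is close to its level of 0.624 to 2.67 CPM. Over 10 alternatives (the block and the looser threshold aside), Nr4a3 was past the threshold in 5, Nr4a1 in 1 and Nr4a2 in 0. Over all genes, 29 passed in edgeR and 614 at an adjusted p of 0.1, in place of 389; leaving out 1 library gave 153 (without knockout replicate 1) to 952 (without control replicate 3).

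In edgeR 0 members of each of the 6 lists passed; the unadjusted counts of both tools stand with each list. At an adjusted p of 0.1, 2 immediate early genes passed, beside 3.55% of all genes. Leaving out 1 library gave 1 to 5 immediate early genes, 2 to 5 cyclic AMP and CREB targets, 0 to 2 upstream regulators, 0 to 1 partners, 0 to 4 genes tied to NR4A receptors and 0 to 3 other nuclear receptors. The share of all genes past the threshold in those fits ran from 0.88% (without knockout replicate 1) to 6.28% (without control replicate 3). The highest counts of immediate early, cyclic AMP, regulator and tied genes came without control replicate 3, the fit with the highest share over all genes. Of 84 results for the 7 named list genes, 54 kept their side of the threshold, 30 did not and 0 changed sign; the cause was not tested.

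With the replicate block, 405 genes (2.47%) passed, and 2 immediate early genes, 4 cyclic AMP targets, 3 upstream regulators and 0 tied genes. Nr4a1 was -0.26, Nr4a2 -0.12 and Nr4a3 -1.17 there. The labels share only the number: same-numbered libraries had correlations of deviations of -0.048, -0.059 and 0.010 over 15811 genes, and 1 of the 3 controls correlated best with its own number.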
